A study of Nothobranchius furzeri with 68 samples.

Results

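Livers of old, fasted female African turquoise killifish (Nothobranchius furzeri) were compared between 4 fish heterozygous for aprt (Het, fish 21 to 24) and 3 wild-type fish (WT, fish 15 to 17). These 7 libraries were picked out by their labels, from 68 libraries of 41 fish. The comparison itself was chosen with earlier results of these data known. All 7 fish were 15 weeks old and had been fasted for 24 h, so the comparison holds no fed female. Each library is the liver of 1 fish, measured by RNA sequencing of polyadenylated RNA. The labels do not describe the aprt allele or the number of lines behind the heterozygous fish, so a property of 1 line and an effect of the allele cannot be told apart. For context, the comparison was set beside old fasted males (3 Het, 3 WT), young fasted females of 6.5 weeks (4 Het, 3 WT), the muscles of the same 7 old females, and old WT males that were fed (3 fish) or fasted for 24 h (3 fish). All old fish were 15 weeks old. For sgk1, fastkd1 and a fasting level, ranges are also given for fed old Het males (4 fish) and fed young males of 6.5 weeks (3 WT, 4 Het).

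The gene aprt encodes adenine phosphoribosyltransferase, which salvages free adenine by joining it to ribose phosphate to give AMP. AMP is the nucleotide sensed by AMP-activated protein kinase when energy is scarce. In a fasting vertebrate liver, falling insulin lets FoxO transcription factors enter the nucleus, glucocorticoids and glucagon raise the enzymes that make glucose from amino acids, and fat becomes the main fuel. The gene roles given here are those known from mammals unless a species is named.

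The targeted gene was examined first. In liver, aprt was at 10.5, 12.7 and 11.7 CPM (counts scaled to a library of fixed size) in WT fish 15, 16 and 17, and at 11.9, 5.53, 8.41 and 6.62 CPM in Het fish 21, 22, 23 and 24. Fish 22, 23 and 24 lay below all WT fish, whereas the library labelled Het 21 lay within the WT range, so the groups overlapped. The same fish stood apart in muscle, where aprt was at 8.50, 8.87 and 11.8 CPM in WT and at 10.1, 3.99, 3.19 and 4.51 CPM in Het fish 21 to 24. The liver log2 fold change of aprt was -0.51 ± 0.218 (SE) and did not pass the test (edgeR quasi-likelihood test, Benjamini-Hochberg adjusted p 0.223). The library labelled Het 21 is kept under its label below, and the main counts of called genes are also given without it.

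**Figure D1:**
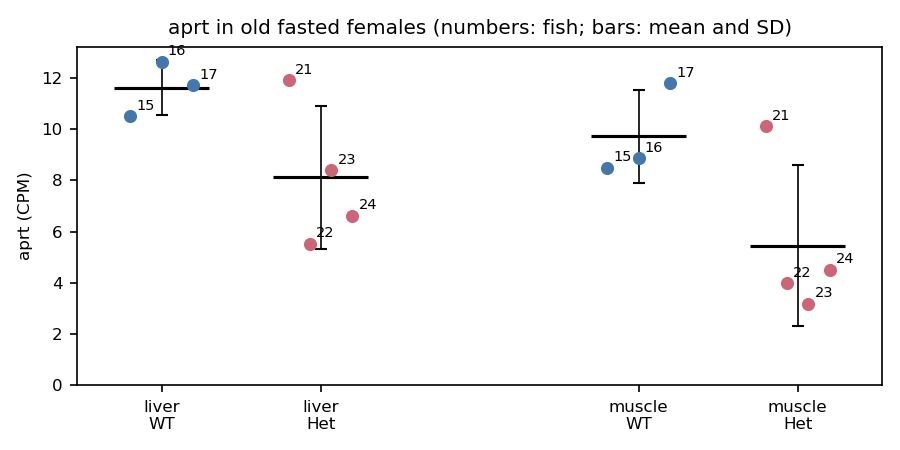
Level of aprt in CPM (linear axis from 0) in liver and muscle of the 7 old fasted females; points are fish, labelled with their numbers, and bars are group means with the SD. Fish 21 sits at the WT level in both tissues, and the other Het fish sit below every WT fish of the same tissue.

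The 7 libraries held between 22686963 and 31600126 counts. The 10 most abundant genes took 41.0% to 58.9% of the counts of a library. The hepatocyte marker genes summed to 52082 to 81041 CPM in WT and 48452 to 62414 CPM in Het. The egg yolk precursor gene vtg3, which oestrogen switches on in female liver, was at 58091, 47908 and 61103 CPM in WT and 41729, 94244, 68930.4 and 101981 CPM in Het, against at most 1.85 CPM in old fasted males. The liver and female labels thus had their marker genes at high levels in all 7 libraries. On the first principal component of the 7 livers, with 31.7% of the variance, WT fish 15 and 17 lay at one end, Het fish 22 and 24 at the other, and WT fish 16 between them with Het fish 21 and 23.

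Markers of other cell types also differed between libraries. The 7 measured exocrine pancreas genes, which in many fish come from pancreatic tissue lying within or on the liver, summed to 907, 144 and 834 CPM in WT fish 15 to 17 and to 1553, 1237, 1057 and 2778 CPM in Het fish 21 to 24, without overlap. All 7 had positive log2 fold changes (median 1.39), but 0 were called. Leukocyte genes had a median log2 fold change of -1.48 over 22 measured genes, 18 of them negative and 0 called. Their summed level was 239.6, 114 and 148 CPM in WT and 142, 118, 159.8 and 137 CPM in Het, with WT fish 15 highest. Much of this sum came from lck and pax5. The gene lck was at 58.1, 44.8 and 89.7 CPM in WT and 107, 21.0, 117 and 32.9 CPM in Het. For pax5 the levels were 43.0, 10.4 and 31.6 CPM in WT and 9.73, 51.8, 13.8 and 47.4 CPM in Het. Neither gene ranked the fish as ptprc did. The pan-leukocyte gene ptprc was at 11.8, 2.78 and 0.692 CPM in WT and 1.14, 2.12, 1.28 and 2.59 CPM in Het, and the T cell gene cd3e was listed at 0 in WT fish 17 and Het fish 21 and 24. In whole tissue, fewer cells of a type and less RNA per cell cannot be told apart. The part that these markers have in the results below was not tested.

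Across the liver, 353 of 17406 tested genes (2.03%) differed between Het and WT at an adjusted p under 0.05, of which 180 (1.03%) were higher in Het and 173 (0.994%) lower. A total of 219 of the 353 differed by more than 2-fold. The median log2 fold change was 1.08 for the higher genes and -1.30 for the lower genes, against 0.0048 over all genes tested. In 307 of the 353 genes the 3 WT fish and 4 Het fish did not overlap, against 2077 (11.9%) of all genes tested (Het higher in 6.46% and lower in 5.48%). The 353 genes were chosen by their difference between these same fish, so their medians and lack of overlap are no separate result. The count of called genes depended on single fish. It was 6 without WT fish 17, 8 without WT fish 15, 577 without WT fish 16, 70 without Het fish 22, 150 without Het fish 23 and 160 without the library labelled Het 21. All 353 genes kept their direction in each of these fits and in the fit without Het fish 24, but 1 gene, midn, was called in all 7. Each fit shares all but 1 library with the fit that chose the genes, so the kept direction is no separate result. Beside the adjusted p of a called gene below stands the largest adjusted p of these 7 fits, with the fish left out. The fit over all 41 livers shares its estimate of the spread, and with only these 2 groups fitted 0 genes were called, with 1904 at an unadjusted p under 0.05.

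That gene, midn, encodes midnolin, which carries short-lived nuclear proteins to the proteasome. It was at 31.4, 18.0 and 26.2 CPM in WT and 6.08, 4.44, 4.68 and 10.7 CPM in Het, with every Het fish below every WT fish (log2 fold change -1.97 ± 0.302, SE, adjusted p 0.00393, up to 0.0419 without WT fish 15). It was singled out after its values were seen.

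The 10 steepest falls included genes of insulin-like growth factor, stress and nutrient signals. The steepest fall was in igfbp1a (LOC107393048), a secreted binding protein that holds insulin-like growth factors away from their receptor. It was at 937, 265 and 945 CPM in WT and 14.1, 14.4, 51.9 and 47.7 CPM in Het. All Het fish lay below all WT fish, and WT fish 16 lay well below the other WT fish (log2 fold change -4.48 ± 1.02, SE, adjusted p 0.0212, up to 0.0881 without WT fish 17). The kinase gene sgk1, induced by serum and glucocorticoids, was at 2442, 373 and 2349.5 CPM in WT and 70.1, 20.2, 197 and 180.1 CPM in Het. Again the groups did not overlap, and WT fish 16 was the lowest of its group (-3.88 ± 0.923, adjusted p 0.0254, up to 0.108 without WT fish 17). For tle3, a corepressor of the Groucho family, WT fish were at 110.0, 85.4 and 171 CPM and Het fish at 13.2, 7.40, 15.5 and 13.4 CPM. Here the WT fish were closer to each other, and the Het fish were lower by a log2 fold change of -3.30 ± 0.625 (adjusted p 0.0107, up to 0.0582 without WT fish 17).

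The other genes among the 10 steepest falls were crema (LOC107383436, log2 fold change -3.69), a cAMP-responsive transcription factor, pptc7 (-3.04), a mitochondrial phosphatase, and adm2 (-2.92), the peptide hormone adrenomedullin 2. They also included nmrk2 (-2.61), which makes NAD precursor from nicotinamide riboside, itpkcb (LOC107380261, -2.56), an inositol trisphosphate kinase, and ddit4 and sesn1, described with their pathway below. Another gene with the symbol nmrk2, LOC107383596, did not pass the test (-2.38). The gene adm2 was abundant, at 1135, 197 and 771 CPM in WT and 95.6, 35.0, 139.8 and 99.1 CPM in Het. None of these overlapped between the groups, as the rule for naming them required. WT fish 16 was the lowest WT fish in each of the 10.

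**Figure D2:**
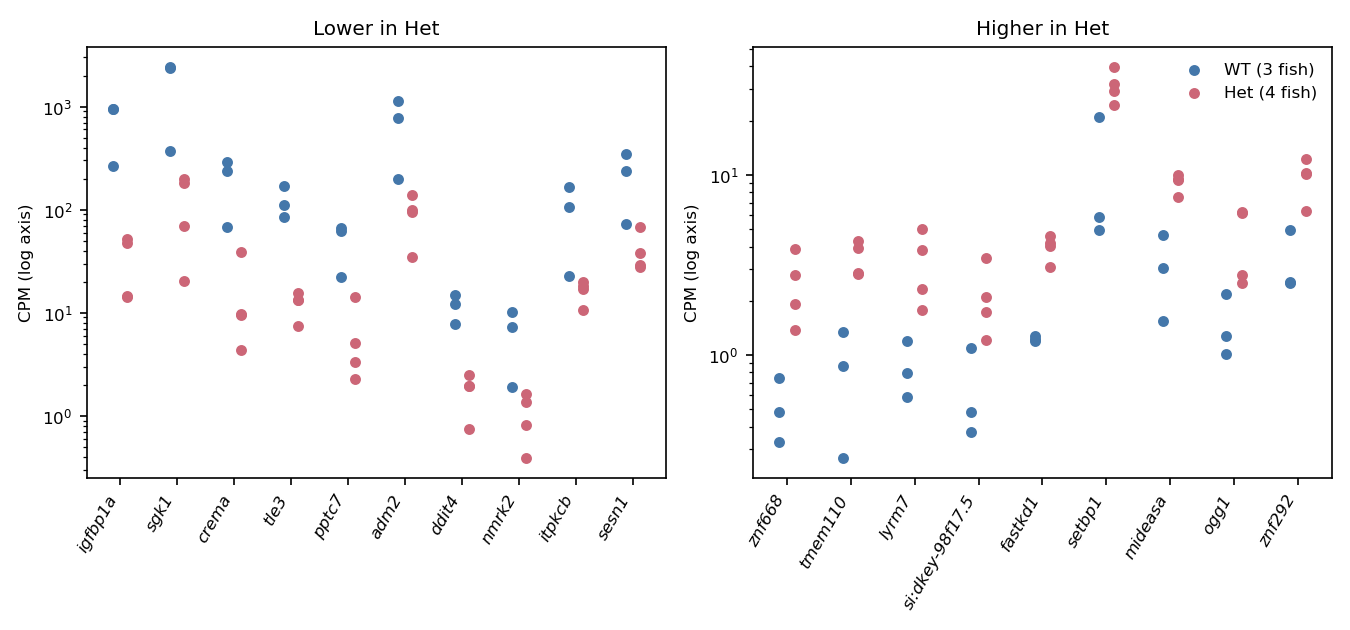
CPM on a log axis of the 10 genes with the largest falls (left) and of 9 of the 10 with the largest rises (right) in Het, among called genes with a symbol, an average log2 CPM of at least 1 and no overlap between groups; each point is a fish. In all 10 falls the lowest WT point is WT fish 16, which lies between the other WT fish and the Het fish.

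Of the 10 largest rises, 9 are described here. The zinc finger gene znf668 (LOC107388076) was at 0.480, 0.327 and 0.746 CPM in WT and 3.88, 1.93, 2.78 and 1.37 CPM in Het, without overlap (log2 fold change 2.27 ± 0.391, SE, adjusted p 0.0103, up to 0.0573 without WT fish 15). Another was tmem110 (2.07), which helps refill calcium stores. Among the other rises were lyrm7 (1.91), which helps assemble respiratory complex III, and fastkd1 (1.68), which handles mitochondrial RNA.

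In fastkd1 the WT fish agreed closely, at 1.28, 1.1996 and 1.23 CPM, and the Het fish were all higher, at 3.10, 4.18, 4.01 and 4.61 CPM. The glycosylase gene ogg1 (1.56), which removes oxidised guanine from DNA, was at 1.28, 2.18 and 1.01 CPM in WT and 2.51, 6.18, 2.78 and 6.22 CPM in Het. The remaining rises were setbp1 (1.57), mideasa (LOC107377669, 1.57), znf292 (1.55) and si:dkey-98f17.5 (LOC107393952, 1.70). Named after their values were seen, 4 further risen genes act on transfer RNA or mitochondrial translation. These were mtfmt (1.09), which formylates the mitochondrial initiator transfer RNA, dus2 (1.18), a dihydrouridine synthase, thg1l (1.33), which adds a guanosine to histidine transfer RNA, and mterf4 (1.12), a factor of mitochondrial ribosome assembly. In thg1l, for example, WT fish were at 0.907, 0.927 and 1.23 CPM and Het fish at 3.02, 2.44, 2.39 and 2.42 CPM.

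Genes of insulin, FoxO and nutrient-sensing signals were the list with the most calls. Of 26 measured members, 7 fell in Het and 0 rose, 21 had negative log2 fold changes, and their median was -1.05. Over all genes tested, 0.994% were called lower and 1.03% higher, with a median of 0.0048. These shares are the background of this list and of those below. The lists were chosen with earlier results of these data known. Among the transcription factors themselves, foxo1 was at 56.6, 44.4 and 92.2 CPM in WT and 17.8, 3.73, 14.1 and 18.3 CPM in Het (-2.25 ± 0.611, SE, adjusted p 0.0459, up to 0.209 without WT fish 17). Every Het fish lay below every WT fish, with Het fish 22 the lowest. The related foxo4 (LOC107378306) was at 59.4, 82.7 and 62.5 CPM in WT and 23.4, 23.7, 21.8 and 42.3 CPM in Het (-1.30 ± 0.302, adjusted p 0.0225, up to 0.0848 without Het fish 22). Among the members that did not pass the test, foxo3 was at 6.78, 30.6 and 15.7 CPM in WT and 3.06, 10.5, 4.23 and 6.54 CPM in Het, with overlap, and ppargc1a, a coactivator that works with FoxO1, was at 79.1, 65.8 and 83.6 CPM in WT and 20.7, 5.47, 27.1 and 33.4 CPM in Het (adjusted p 0.091).

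The insulin receptor substrate irs2, which relays the insulin signal in liver and is itself raised by FoxO, was at 191, 96.9 and 128 CPM in WT and 12.4, 22.9, 44.9 and 68.0 CPM in Het (-1.91 ± 0.445, SE, adjusted p 0.0231, up to 0.123 without WT fish 15). The groups did not overlap. Among genes known to restrain the growth kinase mTORC1, sesn1, sesn2 and ddit4 fell. For sesn1, a sestrin, WT fish were at 235, 71.9 and 344 CPM and Het fish at 29.1, 27.9, 37.8 and 67.9 CPM, so the highest Het fish was just below the lowest WT fish (-2.42 ± 0.388, adjusted p 0.0046, up to 0.0564 without WT fish 17).

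Its relative sesn2 (LOC107394782), a leucine sensor, was at 17.0, 14.7 and 13.4 CPM in WT and 2.04, 3.796, 2.004 and 4.44 CPM in Het (-2.31 ± 0.548, adjusted p 0.0251, up to 0.0899 without WT fish 15). Here the WT fish, fish 16 included, were close to each other. The mTORC1 inhibitor ddit4 was at 12.3, 7.85 and 14.8 CPM in WT and 0.745, 1.93, 1.95 and 2.505 CPM in Het (-2.74 ± 0.705, adjusted p 0.0364, up to 0.15 without WT fish 17), also without overlap. A member in the other direction was trib2 (1.67, adjusted p 0.0539), which did not pass the test. Outside the list, and named after their values were seen, ccng2 (LOC107375093, -1.55) and bcl6 (-1.44), known as FoxO targets in mammals, were called lower too. The list's 7 falls became 0 without WT fish 17, 1 without WT fish 15, Het fish 22 or the library labelled Het 21, and 3 without Het fish 23.

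Of 27 measured genes of the AMPK and mTOR complexes themselves, 0 were called (median -0.034). The smallest p was that of tsc1a (LOC107386302), a subunit of the complex that restrains mTORC1, at 16.0, 13.6 and 17.6 CPM in WT and 10.5, 5.60, 9.35 and 8.64 CPM in Het (adjusted p 0.119). At an unadjusted p under 0.05, 1 member was higher and 3 were lower, against 16.5% of all genes tested in either direction.

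Targets of the glucocorticoid receptor gave 3 falls and 0 rises among 16 measured (median -0.80), against 0.994% and 1.03% of all genes tested. Besides sgk1 these were tat and dusp1. The enzyme gene tat, tyrosine aminotransferase, was at 1607, 2240.1 and 2316 CPM in WT and 802, 598, 651 and 493 CPM in Het (-1.69 ± 0.457, SE, adjusted p 0.0451). Its WT and Het fish did not overlap, and WT fish 16 was not low, but the call was lost in each of the 7 fits without 1 fish (adjusted p up to 0.159). The phosphatase dusp1 was at 22.1, 2.84 and 23.3 CPM in WT and 2.78, 1.42, 1.95 and 3.797 CPM in Het (-2.70 ± 0.618, adjusted p 0.0212, up to 0.127 without WT fish 17), with WT fish 16 inside the Het range.

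The classical targets fkbp5, klf9 and tsc22d3 were not called. In klf9, WT fish were at 150.5, 114 and 362 CPM and Het fish at 3.02, 2.19, 3.84 and 159 CPM. Het fish 21, 22 and 23 lay far below WT, and Het fish 24 lay inside the WT range. The same held for fkbp5, at 37.7, 31.7 and 165 CPM in WT and 7.57, 4.31, 8.52 and 66.1 CPM in Het.

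Named after their values were seen, 4 early-response transcription factors also fell. These were egr2 (log2 fold change -3.18), fosl2 (-3.16), junbb (-2.43) and jun (-1.21). In jun the fish were at 6.94, 5.45 and 6.44 CPM in WT and 2.82, 2.702, 1.95 and 3.39 CPM in Het, without overlap, and a second gene with that symbol, LOC107396464, had a log2 fold change of 0.0045 and was not called. In fosl2, WT fish 16, at 5.45 CPM, lay within the Het range of 4.05 to 8.48 CPM. In the integrated stress and unfolded protein list, 1 of 40 measured genes rose (atf5b, LOC107380766, 0.66) and 1 fell (atf3, -1.75), both with overlap. The asparagine synthetase regulator atf4a did not pass the test (-0.44, adjusted p 0.101). Of 15 heat shock genes, dnajb1b (LOC107390373, -0.60), a co-chaperone, fell and 0 rose.

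For gluconeogenesis and glucose handling, 0 of 20 measured genes were called (median -0.13). At an unadjusted p under 0.05, 1 was higher and 2 were lower, against 16.5% of all genes tested in either direction. The gene with the smallest p was pck1, phosphoenolpyruvate carboxykinase, the gatekeeping step of glucose synthesis. It was at 5697, 383 and 8293 CPM in WT and 211, 1.93, 308 and 122 CPM in Het. The groups did not overlap, but WT fish 16 was close to the highest Het fish and Het fish 22 was near 2 CPM (-4.90 ± 1.502, SE, adjusted p 0.081). In g6pc, glucose-6-phosphatase, WT fish were at 664, 387 and 881 CPM and Het fish at 114, 51.4, 91.0 and 527 CPM, with Het fish 24 inside the WT range (adjusted p 0.0845).

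In fat oxidation and ketone synthesis, 1 of 34 measured genes rose and 0 fell, 28 had positive log2 fold changes, and the median was 0.33. The called gene was cpt2, carnitine palmitoyltransferase 2, which hands long-chain fatty acids to the mitochondrial matrix. It was at 15.8, 9.43 and 15.8 CPM in WT and 34.6, 21.7, 26.2 and 21.8 CPM in Het, without overlap (0.93 ± 0.251, SE, adjusted p 0.0438, up to 0.137 without WT fish 16). The receptor gene ppara, which drives the pathway, was at 478, 108 and 458 CPM in WT and 147, 22.5, 159.6 and 32.2 CPM in Het, with overlap (adjusted p 0.253).

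In fatty acid and triglyceride synthesis, 1 of 22 genes rose and 1 fell. The acyltransferase gpam, the first step of glycerolipid synthesis, was at 14.6, 11.8 and 10.5 CPM in WT and 19.9, 28.0, 19.4 and 19.3 CPM in Het (0.81 ± 0.208, SE, adjusted p 0.036, up to 0.196 without WT fish 17). The phosphatase lpin2 (LOC107383782), a later step, was at 337, 240.4 and 456 CPM in WT and 149.7, 84.0, 173 and 187 CPM in Het (-1.21 ± 0.302, adjusted p 0.0327, up to 0.204 without WT fish 17). Both were without overlap.

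In sterol synthesis, 1 of 24 genes fell and 0 rose (median 0.14). The gene that fell, insig1, is no enzyme: it holds the sterol-sensing SREBP complex in the endoplasmic reticulum and is induced by insulin and SREBP. It was at 2993, 1491 and 2737 CPM in WT and 275, 515, 569 and 787 CPM in Het, without overlap (-2.17 ± 0.544, SE, adjusted p 0.0338, up to 0.134 without WT fish 17). The low-density lipoprotein receptor ldlr was at 137, 231 and 311 CPM in WT and 142, 94.7, 124 and 131 CPM in Het, with overlap (adjusted p 0.0696).

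Among 37 measured purine genes, 1 fell and 0 rose (median 0.026). It was pnp5a (LOC107377027), a purine nucleoside phosphorylase, which splits nucleosides into base and ribose phosphate. WT fish were at 1745, 1326 and 1969 CPM and Het fish at 407, 452, 441 and 674 CPM, without overlap (-1.77 ± 0.353, SE, adjusted p 0.0109, up to 0.0821 without WT fish 17). The adenosine kinase gene adk, another route to AMP, was at 109, 84.0 and 129.9 CPM in WT and 191, 100.4, 178 and 111 CPM in Het, with overlap (adjusted p 0.396).

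**Figure D3:**
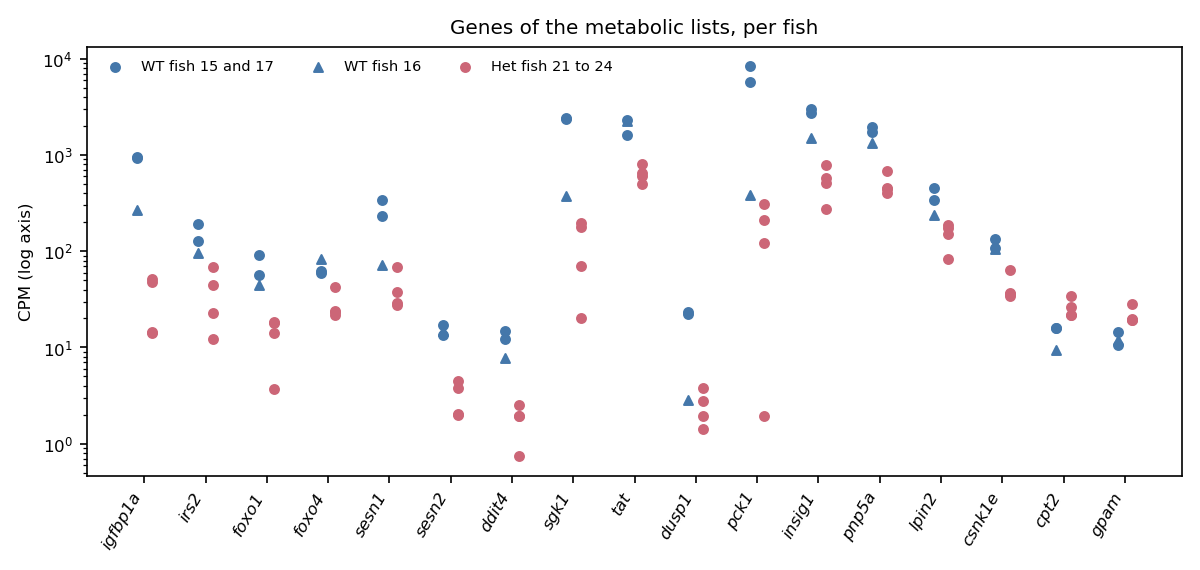
CPM on a log axis of called genes of the insulin and FoxO, glucocorticoid, lipid, sterol, purine and circadian lists, with pck1, which was not called; each point is a fish and the triangle is WT fish 16. The Het points lie below the WT points in all genes shown but cpt2 and gpam, where they lie above, and dusp1, where fish 16 lies among them.

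The other lists held at most 1 call each. Of 32 circadian genes, csnk1e, the kinase that marks PER proteins for decay, fell, and 26 had negative log2 fold changes (median -0.37). It was at 108, 105 and 134 CPM in WT and 34.5, 36.9, 35.8 and 63.1 CPM in Het, without overlap (-1.44 ± 0.294, SE, adjusted p 0.0125, up to 0.0846 without WT fish 17). Another list member with the symbol csnk1e was not among the calls. Of 76 mitochondrial ribosomal protein genes, mrps31 (0.85) rose and 63 were positive (median 0.21). No gene was called among 83 oxidative phosphorylation, 79 cytosolic ribosomal, 48 proteasome, 48 autophagy and lysosome, 32 acute-phase and complement, 60 cell cycle and 7 egg protein genes. Their medians were 0.058, 0.081, 0.19, -0.13, -0.24, -0.53 and -0.17, in that order. At an unadjusted p under 0.05, higher and lower genes numbered 2 and 0, 0 and 0, 3 and 0, 2 and 3, 1 and 4, 2 and 8, and 0 and 0. Over all genes tested, 2875 of 17406 (16.5%) were at such a p in either direction.

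The genes with the smallest p in these lists were sdhaf1 (log2 fold change 0.94, adjusted p 0.076), an assembly factor of succinate dehydrogenase, and psmg2 (1.27, 0.0563), a proteasome assembly chaperone. In the same way, tfe3 (-0.84, 0.0649) is a lysosomal gene regulator, rfc1 (1.44, 0.0603) a subunit of the clamp loader of replication, and rpl7l1 (0.30, 0.573) a ribosomal protein relative. The sign of rfc1 was opposite to most of its cell cycle list, where 46 of 60 genes were negative. In that list 15 genes were lower and 3 higher without overlap, against 5.48% and 6.46% of all genes tested. The oestrogen receptor esr1 (LOC107377558) had -0.41 (adjusted p 0.56). The liver hormone leap2 (LOC107377007), which blocks the ghrelin receptor, was at 9.87, 21.8 and 4.26 CPM in WT and 37.9, 84.9, 44.2 and 118 CPM in Het. Its groups did not overlap, yet the difference did not pass the test (2.57 ± 0.872, SE, adjusted p 0.113). Of the cell type markers, esam, an endothelial adhesion protein, was called lower (-0.74). The hepatocyte, erythroid, bile duct, stellate cell, endothelial, skeletal muscle and ovary lists had medians of -0.10, 0.25, 0.0022, -0.079, -0.23, -1.09 and -0.57. The skeletal muscle and ovary medians rest on 6 and 4 measured genes at low levels. Skeletal muscle genes summed to 3.36 to 11.7 CPM in WT and 1.39 to 38.5 CPM in Het, with Het fish 24 highest. Ovary genes summed to 1.33 to 1.74 CPM in WT and 0.450 to 1.29 CPM in Het.

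The genes called for genotype were set beside the fasting response of old WT males, which are other fish. In that comparison 5033 of 17406 genes (28.9%) were called, 2321 (13.3%) higher and 2712 (15.6%) lower after 24 h without food. Of the 353 genes called in the females, 329 had the opposite sign in the fasting response, against 11548 (66.3%) of all genes tested. Both comparisons called 227 genes, which are 64.3% of the genotype calls and 4.51% of the fasting calls. Of these 227, 126 were lower in Het and higher with fasting, 99 were higher in Het and lower with fasting, and 2 (tmem175 and LOC107380865) had the same direction. Over all 5033 fasting calls, called for genotype or not, 4046 (80.4%) had the opposite sign in the genotype effect. In the 7 fits without 1 female liver, between 97.9% and 100% of the genes called in both were opposite, with between 5 and 289 such genes. Without the library labelled Het 21, 106 of 107 were opposite.

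Single genes show the scale. In old WT males sgk1 was at 10.5 ± 1.40 CPM fed and 521 ± 351 CPM fasted (mean ± SD of 3 fish each), and the log2 fold change was 5.63. The fasted Het females, at 20.2 to 197 CPM, lay between these fed males and the fasted WT females. They overlapped the other fed males, which were at 23.1 to 66.2 CPM in old Het, 17.5 to 35.4 CPM in young WT and 37.0 to 301 CPM in young Het. For tle3 the fed males were at 10.7 ± 1.19 CPM and the fasted males at 63.0 ± 39.2 CPM, and the fasted Het females, at 7.40 to 15.5 CPM, overlapped the range of these fed males, 9.34 to 11.6 CPM.

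For fastkd1, which fasting lowered in the males (-2.04), fed males were at 7.95 ± 0.569 CPM and fasted males at 1.92 ± 0.769 CPM. The Het females, at 3.10 to 4.61 CPM, were above both old fasted WT groups and below the fed old WT males. They overlapped the fed old Het males, at 3.08 to 3.84 CPM, and the fed young WT and Het males, at 4.06 to 5.13 and 3.71 to 6.26 CPM. Among the named genes that did not follow this pattern, nmrk2 (-0.84 with fasting, adjusted p 0.408) and setbp1 (0.19) had the same sign in both comparisons. For bcl6 the sign with fasting was opposite (0.50). None of these genes was called in the fasting response. The cell cycle list, with 0 genes called for genotype, had a negative median in both comparisons. Of its 60 measured genes, 46 were negative and 14 positive in Het females (median -0.53). With fasting in the old WT males, 51 were called lower and 2 higher (median -2.29). These males and females differ in sex, and no fed female was analysed here.

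**Figure D4:**
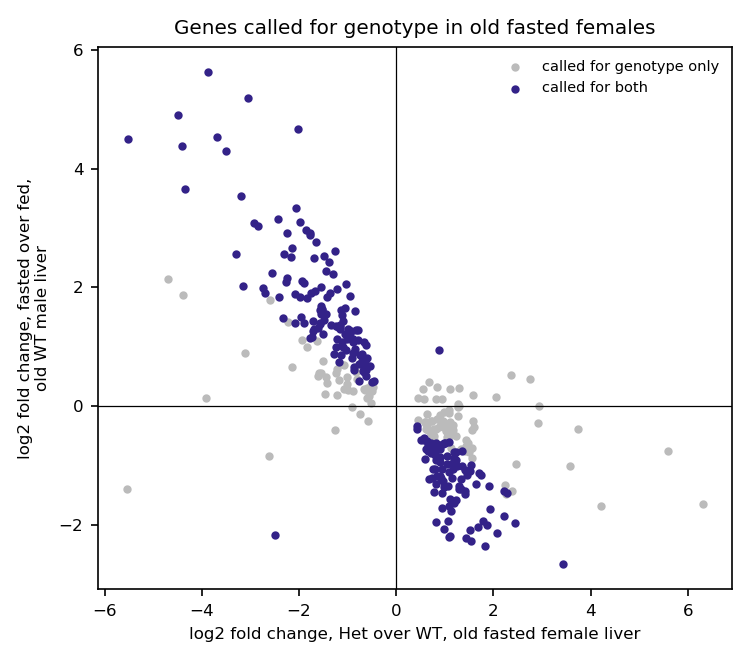
The 353 genes called for genotype in old fasted female liver, placed by their log2 fold change there (Het over WT, horizontal axis) and by their log2 fold change in old WT male liver (fasted over fed, vertical axis); dark points are the 227 genes called in both. Most points lie in the upper left and lower right of the plot, where the signs are opposite.

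A fasting level was computed for each fish as the mean of log2 CPM over the 5033 genes of the male fasting response, each signed by its direction there, minus the mean of the fed old WT males. The fasted WT males among those compared below helped choose these genes. It was 1.17, 1.31 and 1.31 in WT females 15, 16 and 17, and 1.04, 0.786, 0.990 and 0.941 in Het females 21 to 24. All Het females lay below all WT females. The fed old WT males, which set the 0 of the scale and helped choose its genes, ran from -0.160 to 0.102. Other fed males were higher, from 0.278 to 0.784 in old Het, 0.595 to 0.713 in young WT and 0.455 to 0.877 in young Het, so Het female 22 lay within the range of fed fish. With the genes called for genotype left out, over 4806 genes, the WT females were at 1.13, 1.30 and 1.27 and the Het females at 1.06, 0.807, 1.004 and 0.943, so the groups still did not overlap. Here WT fish 16 was not low, unlike in sgk1, igfbp1a and pck1. In old fasted males the level ran from 0.935 to 1.45 in WT and from 1.39 to 1.55 in Het, and in young fasted females from 0.898 to 1.03 in WT and from 0.609 to 1.30 in Het, with overlap in both.

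The genotype effect of old females was then set beside that of old fasted males. In males 132 of 17406 genes (0.758%) were called, 62 (0.356%) higher and 70 (0.402%) lower in Het. Both sexes called 5 genes, 1.42% of the female calls and 3.79% of the male calls, and all 5 were opposite in sign. These were abcb11, the bile salt export pump (3.43 in females and -2.63 in males), mpst (0.94 and -0.98), dab2 (0.88 and -0.92), bag2 (0.98 and -1.12) and ints6 (-1.07 and 1.39). Of the 353 female calls, 259 had the opposite sign in males, against 57.6% of all genes tested.

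Tested as a difference between the sexes, the genotype effect differed in 812 genes (4.67%), 368 (2.11%) more positive and 444 (2.55%) more negative in females. The smallest p on the positive side were those of mpst (LOC107376359, a sulfur transferase), dab2 (an endocytic adaptor) and bag2 (a chaperone cofactor). For mpst, WT females were at 5.39, 6.22 and 5.43 CPM and Het females at 11.8, 10.04, 10.1 and 11.6 CPM, whereas the 3 WT old fasted males averaged 5.90 ± 1.22 CPM and the 3 Het males 3.00 ± 0.321 CPM (mean ± SD). The female minus male difference was 1.92 ± 0.306 (SE, adjusted p 0.00278).

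On the negative side were flnc (filamin C, -2.58), csgr16h14orf159 (-2.15) and the homeobox gene hoxb3a (LOC107391819, -4.17). In flnc and hoxb3a the male effect was the larger one: flnc was at 2.08, 3.82 and 4.21 CPM in WT females and 2.55, 2.83, 3.01 and 5.57 CPM in Het females, with overlap (0.033 in females and 2.61 in males). Of the steepest falls, igfbp1a (-6.31), sgk1 (-4.996) and sesn1 (-2.64) differed between the sexes. In males igfbp1a was at 281 ± 159 CPM in WT and 993 ± 436 CPM in Het, and did not pass the test there (1.82, adjusted p 0.383). For aprt itself, the female minus male difference of 0.70 ± 0.319 (SE) did not pass the test (adjusted p 0.186). The fall of aprt was called in old fasted males (-1.21, adjusted p 0.0161) and was smaller and not called in old fasted females (-0.51). In young fasted females aprt had a log2 fold change of -0.92 ± 0.218 (SE) and was not called either (edgeR, adjusted p 0.237). The 812 became 85 without WT female 17, 297 without WT female 15, 369 without Het female 22, 976 without the library labelled Het 21 and 1785 without WT female 16. Without Het males 25 and 27 and WT male 18, each left out in turn, it became 350, 516 and 518, and it was 12 when only these 4 groups were fitted.

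**Figure D5:**
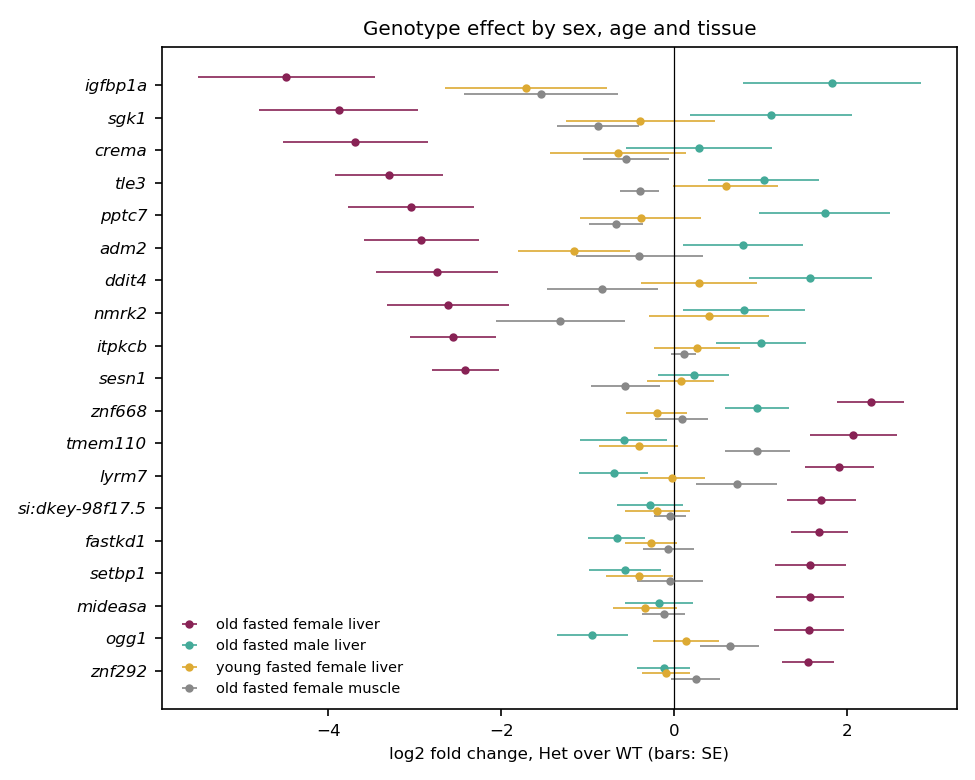
Log2 fold change of Het over WT (points) with its SE (bars) for the 10 largest falls and 9 of the 10 largest rises of old fasted female liver, shown there and in old fasted male liver, young fasted female liver and old fasted female muscle. The genes were chosen for their size in old female liver, so the distance of those points from 0 is not a finding.

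In young fasted females 0 genes were called by edgeR, with 1374 at an unadjusted p under 0.05 and a smallest adjusted p of 0.201. The difference of the genotype effect between old and young females passed the test in 166 genes (0.954%), 128 (0.735%) more positive and 38 (0.218%) more negative in old fish. The smallest p on the positive side were those of shq1, which helps assemble small nucleolar ribonucleoproteins, naa40, a histone acetyltransferase, and magl (LOC107378104). For shq1, old WT females were at 5.07, 5.56 and 5.81 CPM and old Het females at 19.4, 9.20, 12.0 and 7.03 CPM, while the 3 young WT females averaged 12.8 ± 1.12 CPM and the 4 young Het females 7.47 ± 1.57 CPM (mean ± SD). The old minus young difference was 1.91 ± 0.310 (SE, adjusted p 0.00492).

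For naa40 and magl the differences were 1.09 and 2.09. On the negative side were the chaperone partner cdc37l1 (-1.05), the vesicle gene rab11fip1a (LOC107393738, -1.61) and the Mediator subunit med10 (-0.92). In med10 neither age passed the test alone in this comparison (-0.35 in old and 0.57 in young females). The steep falls of tle3 (-3.90) and sesn1 (-2.49) differed between the ages, while for igfbp1a (-2.77, adjusted p 0.326) and sgk1 (-3.49, 0.163) the difference did not pass the test. In sesn1, young WT females were at 43.8 ± 5.81 CPM and young Het females at 46.0 ± 25.8 CPM (mean ± SD). The 166 became 14 and 51 without young WT females 29 and 30, and 45 without young Het female 34. Without old WT females 15, 16 and 17 it became 39, 318 and 35, and without old Het females 22 and 23 it became 63 and 43, each left out in turn. Without the library labelled Het 21 it was 178. It was 0 when only these 4 groups were fitted, with 1945 at an unadjusted p under 0.05.

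In the muscles of the same 7 fish 0 of 16380 genes were called by edgeR (1255 at an unadjusted p under 0.05), and 21 by DESeq2. Of the 353 liver genes, 336 were measured in muscle, 166 of them with the opposite sign to liver, against 47.4% of all genes measured in both. At an unadjusted p under 0.05, 29 of the 336 (8.63%) differed in muscle, against 7.66% of all genes tested there. The liver's steepest fall, igfbp1a, had a muscle log2 fold change of -1.54 (adjusted p 0.719), and sesn1 one of -0.57 (0.778). For aprt the muscle value was -0.83 (adjusted p 0.567).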

How the data were processed

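The authors deposited a table of raw counts for liver and another for muscle, with a value for each gene in each library. Per the submitters' processing notes, reads went through FastQC 0.11.8, Trim Galore 0.6.4, cutadapt 3.4 and STAR 2.7.6a; the roles of these tools, the genome build, the annotation and the use of strand are not given in the sources used here, so overlapping, antisense and near-identical genes are uncertain. Of 14280 LOC identifiers, 5241 were given symbols from a RefSeq table of assembly NfurGRZ-RIMD1.

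The test was that of edgeR 4.0.16 in R 4.3.3 (glmQLFit and glmQLFTest, TMM size factors, filterByExpr with a minimum count of 10 and a minimum total of 15), with 1 mean per group over all 41 liver or 27 muscle libraries. P-values were Benjamini-Hochberg adjusted over all genes tested, and genes were called under 0.05. Each SE is approximate: the absolute log2 fold change divided by the square root of the F statistic of the quasi-likelihood test. Counts over all 17406 genes of the liver fit are the background of each list. CPM used the TMM library sizes, and log2 CPM a prior count of 2. Replicates are separate fish per the labels, and the pairs of libraries within the groups differed by more than sampling noise. In the shallowest of the 7 libraries, 3 counts are 0.242 CPM, and such counting limits do not cover differences between fish. Steps were tested on simulated counts.

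The comparison and the gene lists were chosen with earlier results of these data known. The genes named are the 10 largest rises and falls that were called, had a symbol, an average log2 CPM of at least 1 and no overlap, aprt, vtg3, called list genes, the member with the smallest p of each list without a call, 3 genes per direction in each difference, and 11 genes named after their values were seen; uncalled list members and genes shared between comparisons were also added then. Alternatives were DESeq2 1.42.0, RLE size factors, no filter, fewer groups in the fit and each library left out. The counts of opposite direction without 1 library and the fasting level without the genotype calls were added after the data were seen. Results on 2 of these genes are not reported here.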

Additional observations from a re-analysis of the deposited data

Results flagged for a closer look

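Among the named genes, 1 of the 4 Het fish stood apart from the other Het fish in 6 of 70 genes examined (8.57%), by a gap test that flags about 1 in 20 such groups by chance. The fish that stood apart were foxo4 in Het fish 24 (42.3 CPM), foxo1 in Het fish 22 (3.73 CPM), gpam in Het fish 22 (28.0 CPM), csnk1e in Het fish 24 (63.1 CPM), mrps31 in Het fish 24 (7.03 CPM) and thg1l in Het fish 21 (3.02 CPM).

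The genotype effect of old fasted females was compared with that of old fasted males by the edgeR test of the difference. It differed at an adjusted p under 0.05 in 50 of the named genes, against 4.67% of all genes tested. Many named genes were chosen by their genotype effect in these same old female livers, so this count is no separate result. Values in parentheses are log2 differences, females minus males. Such a difference can come from the effect in either sex, and leap2, which has the largest, was not called in old females alone. The effect was more positive in females for leap2 (7.76), tmem110 (2.65), lyrm7 (2.61), ogg1 (2.50), fastkd1 (2.34), setbp1 (2.14), bag2 (2.09), si:dkey-98f17.5 (1.98), mpst (1.92), dab2 (1.81) and psmg2 (1.80). It was also more positive for thg1l (1.67), znf292 (1.67), dus2 (1.67), shq1 (1.58), sdhaf1 (1.49), mrps31 (1.46), mtfmt (1.44), cpt2 (1.30), magl (1.24), atf5b (1.08) and naa40 (1.03). In females it was more negative for igfbp1a (-6.31), sgk1 (-4.996), pptc7 (-4.78), tle3 (-4.33), ddit4 (-4.32), hoxb3a (-4.17), crema (-3.97), adm2 (-3.71), itpkcb (-3.57), insig1 (-3.46), fosl2 (-3.43), nmrk2 (-3.42), dusp1 (-3.21) and sesn2 (-3.000). Smaller negative differences were found for tat (-2.69), sesn1 (-2.64), irs2 (-2.63), flnc (-2.58), bcl6 (-2.39), atf3 (-2.38), pnp5a (-2.28), csgr16h14orf159 (-2.15), midn (-1.91), ccng2 (-1.91), lpin2 (-1.57), rab11fip1a (-1.45), esam (-1.06) and cdc37l1 (-0.94).

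Log2 differences between old and young fasted females are given as old minus young. The genotype effect differed between these ages in 18 of the named genes, against 0.954% of all genes tested. It was more positive in old females for znf668 (2.48), magl (2.09), dus2 (2.06), fastkd1 (1.95), shq1 (1.91), znf292 (1.64), thg1l (1.60), gpam (1.54), cpt2 (1.46) and naa40 (1.09), and more negative for tle3 (-3.90), atf3 (-2.84), itpkcb (-2.83), sesn1 (-2.49), midn (-2.03), rab11fip1a (-1.61), cdc37l1 (-1.05) and med10 (-0.92). Genes named for 1 of these differences were chosen by its p, and many others by their genotype effect in the same old females. Neither their presence here nor the count against all genes is a separate result.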

How the results depend on the processing

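The 353 genes called in old fasted female liver became 648 with DESeq2 (334 of the 353 kept), 208 with no filter on low counts (206 kept) and 4 when only fasted livers were fitted, and 350 with RLE size factors (323 kept, 150 higher and 200 lower, against 180 and 173). They became 0 when only these groups (1904 at an unadjusted p under 0.05) or only fasted female livers (2169) were fitted. Fewer libraries in a fit leave fewer degrees of freedom for the spread, but whether this lowered the counts was not tested. With 1 library left out the count ran from 6 (without WT fish 17) to 577 (without WT fish 16).

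The difference between the sexes was called in 1558 genes with DESeq2, 535 with no filter and 12 when only the groups compared were fitted (85 to 1785 with 1 library left out). The difference between the ages was called in 458, 64 and 0 (14 to 318). The fasting response of old WT males was called in 943 genes when only its groups were fitted (3414 to 5838 with 1 library left out). In muscle DESeq2 called 21 genes, and each fit without 1 library called 0. The cause of these shifts was not tested.

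No named gene changed sign as a call under any alternative run. Counting each named gene in each fit, calls were lost 186 times with 1 library left out and 161 times in the other alternatives. In that order, results were classed as unchanged 381 and 232 times, as stronger 3 and 6 times and as otherwise moved 5 and 3 times. No paired analysis was possible because the WT and Het fish compared share no fish number.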
